A study of Mus musculus with 18 samples.

Results

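The 8 genes described here are *Slc7a11*, *Gclc*, *Gclm*, *Gss*, *Gsr*, *Gpx1*, *Gpx4* and *Ggt5*, which carry cystine uptake and the synthesis, recycling, use and breakdown of glutathione. The data are of bone marrow (BM)-derived macrophages from *Slc7a7* knockout and control mice. These genes, 8 of the 31053 listed, were chosen by name for these roles, with earlier results of these data known. Shares of them that passed are therefore set beside shares of all genes as description alone. All 8 were among the 12290 genes that passed the filter on low counts, although *Ggt5* never had more than 3 counts in a library.

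Glutathione is the tripeptide of glutamate, cysteine and glycine that serves cells as their main small thiol antioxidant. Cysteine usually limits its synthesis, and macrophages in culture take it up in its oxidized form, cystine, through an antiporter of SLC7A11 and the heavy chain SLC3A2 that gives out glutamate in exchange. Glutamate-cysteine ligase then makes the first and rate-limiting bond, glutathione synthetase adds glycine, peroxidases spend glutathione to reduce peroxides, and glutathione reductase restores it with NADPH. The transcription factors NRF2, which binds antioxidant response elements, and ATF4, which binds amino acid response elements, are known regulators of several of these genes.

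The RNA-Seq covered 18 libraries from 6 mice on a C57Bl/6J background, with 3 mice of the *Slc7a7* LysM-/- genotype, called knockout here, and 3 *Slc7a7* LysM+/+ controls, called wild type. BM cells of 12-week-old mice were grown into macrophages for 7 days with macrophage colony-stimulating factor or L-cell conditioned medium, and 100000 cells per library were kept for 24 h with the vehicle PBS (control), with 50 μg/mL of acetylated LDL (Ac-LDL) or with 100 μg/mL of oxidized LDL (Ox-LDL). The Cre recombinase is driven by the lysozyme M locus, *Lyz2*, so that the deletion is limited to cells of the myeloid lineage and need not reach every cell. Cells of each mouse were used in all 3 media, which makes 6 groups of 3 libraries. The questions were how the 8 genes respond to each modified LDL in each genotype, whether the genotypes differ within a medium, and whether the response differs between them. Doses of the 2 LDLs differ, so that their values are given side by side and not compared.

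Total counts were between 1043492 and 1768816 per library, so that 3 counts stand for 1.67 to 2.85 CPM, the usual unit of counts scaled to depth, here with TMM factors. *Slc7a7*, the targeted gene, was at 11.1 to 29.3 CPM in wild type and at 2.22 to 10.9 CPM in knockout libraries, with no overlap in any medium. All 8 macrophage markers were detected. Their summed level was lower in knockout libraries (12530 to 20930 CPM against 21090 to 35760 CPM), and without *Lyz2*, the locus that carries the Cre, the ranges overlapped (3991 to 6676 CPM against 3383 to 6579 CPM). Of 8 neutrophil markers 7 had counts, with *Ly6g* at 0, and their sum reached 25.6 to 252 CPM, while dendritic, stromal, lymphoid and erythroid lists stayed at or below 26.9 CPM, with *Lum*, *Cd79a*, *Ms4a1*, *Nkg7* and *Hba-a2* among those at 0. The 3 libraries of wild type mouse 1 had the lowest mean correlation with the other libraries (0.914 to 0.931, against 0.934 to 0.949 for the other 15). They also had the lowest total counts, 1043492 to 1131744 against 1183430 or more, and the part of depth in this correlation was not tested. Results that use wild type cells were also computed without this mouse. These are bulk libraries, in which fewer cells with a transcript and less of it per cell cannot be told apart.

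Per kilobase of exons, the order of the 8 genes in wild type control medium ran over more than 3 orders of magnitude. That span holds only with *Ggt5* at its lower end, which rests on 1, 2 and 0 counts. *Gpx1*, the cytosolic glutathione peroxidase, was highest at 367 ± 21.0 CPM per kb (SD, n = 3), and *Gpx4*, the peroxidase of membrane lipid peroxides, followed at 132 ± 48.2 CPM per kb. *Gclm*, the modifier subunit of glutamate-cysteine ligase, was at 34.1 ± 11.6 CPM per kb and *Gsr*, glutathione reductase, at 31.8 ± 6.25 CPM per kb, and these neighbours overlapped. *Gclc*, the catalytic subunit of the ligase, was at 12.5 ± 4.76 CPM per kb and *Gss*, glutathione synthetase, at 3.85 ± 0.67 CPM per kb. *Slc7a11* was at 0.95 ± 0.48 CPM per kb and *Ggt5*, a gamma-glutamyl transferase of the cell surface, at 0.13 ± 0.12 CPM per kb. Knockout control cells showed the same order except that *Gsr* (34.4 ± 5.97 CPM per kb) stood above *Gclm* (28.6 ± 6.15 CPM per kb), again with overlapping libraries. Lengths are of all annotated exons together, so that a gene read mainly as a short isoform is understated on this scale.

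With Ox-LDL, *Gclc* rose and *Gpx1* fell in both genotypes and *Gclm* rose in knockout cells, while with Ac-LDL none of the 8 passed the threshold in the fit without a block. In wild type cells with Ox-LDL, 2 of the 8 genes passed edgeR's quasi-likelihood test at an adjusted p under 0.05 (*Gclc* up, *Gpx1* down), against 1.34% of all genes tested, and 5 of 8 had an unadjusted p under 0.05, against 10%. With the mouse as a block 4 passed (*Gclm* and *Gsr* up as well), with no filter on low counts 3 (*Gclm* as well), with only the groups compared 0, and with 1 library left out 0 to 2. Shares of all genes called in these other fits are not given here, so that their counts have no background beside them. The count was 0 without wild type control replicate 2 or 3 or Ox-LDL replicate 3, and 1 without Ox-LDL replicate 1 or 2. In knockout cells with Ox-LDL, 3 of 8 passed (*Gclc* and *Gclm* up, *Gpx1* down), against 2.32%, and 3 of 8 had an unadjusted p under 0.05, against 12.3%. It was 1 without knockout control replicate 3 or Ox-LDL replicate 2. The median log2 fold change of the 8 was 0.49 in wild type and 0.14 in knockout cells, beside 0.01 and 0.00 over all genes tested. Both medians include the fitted value of *Ggt5*, which had at most 3 counts in a library and shifts them. Where groups of any of the 8 genes are said further on not to overlap, the share of all genes that separate so is not given.

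**Figure D1:**
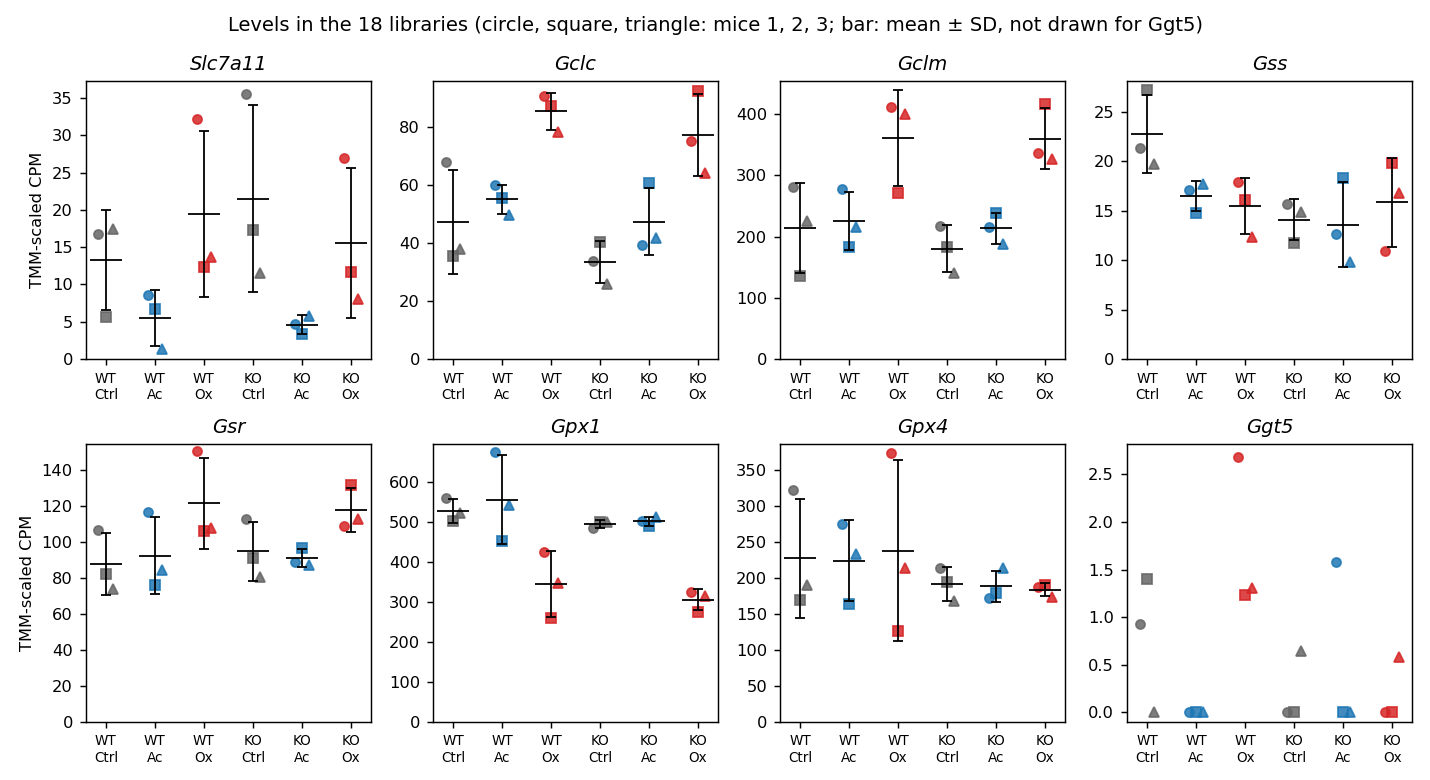
TMM-scaled CPM (vertical axes, each from its own scale) of the 8 genes in the 18 libraries by genotype (WT, KO) and medium (grey control, blue Ac-LDL, red Ox-LDL), with the mean ± SD of each group. Under Ox-LDL, *Gclc* sits between 64.2 and 92.4 CPM and *Gpx1* between 260.5 and 426 CPM in the 6 mice, and *Ggt5* has no bar since it had 0 to 3 counts per library.

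With Ac-LDL, none of the 8 genes passed in wild type cells, against 0.472% of all genes, and 0 of 8 had an unadjusted p under 0.05, against 7.33%. In knockout cells 0 passed, against 0.521%, and 2 of 8 (*Slc7a11* and *Gclc*) had an unadjusted p under 0.05, against 7.53%. DESeq2 called 0 in the former comparison and 1, *Slc7a11*, in the latter. Medians of the 8 log2 fold changes were 0.03 and 0.00, again with *Ggt5* among them, beside 0.00 and 0.00 over all genes.

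Between the genotypes, 0 of 8 genes passed in control medium (against 0.00814% of all genes), 0 with Ac-LDL (0.0163%) and 0 with Ox-LDL (0.00814%), and DESeq2 made 0 calls among them as well. The targeted gene *Slc7a7* itself passed this test only with Ac-LDL, so that the absence of calls does not show that the genotypes are alike. At an unadjusted p under 0.05 there was 1 of 8 in control medium, *Gss* (background 4.0%), 0 with Ac-LDL (4.89%) and 0 with Ox-LDL (4.78%). Leaving *Ggt5* aside, log2 fold changes of knockout over wild type were between -0.69 and 0.73 in control medium, between -0.27 and -0.01 with Ac-LDL and between -0.36 and 0.07 with Ox-LDL. A test of whether the genotypes responded differently passed for 0 of 8 genes with either LDL (background 0% in both) and had an unadjusted p under 0.05 for 0 of 8 (2.66% with Ac-LDL and 2.75% with Ox-LDL), with 0 calls by DESeq2. The labels number all wild type libraries ahead of all knockout ones, so that genotype and an effect of that order cannot be told apart.

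*Slc7a11* lies at chr3:49892526-50443614 on the minus strand (GRCm38) and encodes the light chain of the cystine/glutamate antiporter. RefSeq gives a promoter window from 250 bases before to 50 bases after the start for 5 of the 8 genes, and the window of *Slc7a11* (chr3:50443564-50443863, GRCm38.p6, minus strand, written 5′ to 3′ in its own direction) is shown because this gene alone of the 5 held the letters TGATGNAA, the core of the amino acid response element, searched on both strands. They occur at 66 and 47 bases before the start in opposite orientations, marked in capitals. Among 32851 mouse windows of the same length, 3.97% hold this core and 0.07% hold it more than once.
Slc7a11 promoter: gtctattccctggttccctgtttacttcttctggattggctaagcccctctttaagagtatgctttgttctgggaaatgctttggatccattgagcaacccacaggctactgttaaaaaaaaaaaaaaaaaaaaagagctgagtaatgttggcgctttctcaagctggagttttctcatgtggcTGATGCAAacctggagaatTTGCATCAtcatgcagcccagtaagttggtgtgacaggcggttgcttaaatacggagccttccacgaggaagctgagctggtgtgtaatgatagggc
A match is a string of letters, and binding was not measured.

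*Slc7a11* was read from few counts, 2 to 59 per library. Wild type mice 1, 2 and 3 had 16.7, 5.58 and 17.5 CPM in control medium, 8.54, 6.65 and 1.36 CPM with Ac-LDL, and 32.3, 12.4 and 13.7 CPM with Ox-LDL. The Ac-LDL values reached into the control range through mouse 2, and the value of mouse 3 rests on 2 counts. Knockout mice 1, 2 and 3 had 35.6, 17.3 and 11.6 CPM in control medium, 4.73, 3.33 and 5.80 CPM with Ac-LDL, and 26.9, 11.6 and 8.09 CPM with Ox-LDL. In knockout cells all Ac-LDL libraries lay under all control libraries, whereas the Ox-LDL libraries overlapped the control ones although each mouse was slightly lower than in its own control.

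The log2 fold change of *Slc7a11* with Ac-LDL was -2.21 ± 0.56 (SE) in knockout cells, a fold of 0.22 (95% interval 0.10 to 0.48), with an adjusted p of 0.0917. It passed with the mouse as a block (-2.08, adjusted p = 0.00105), with DESeq2 (adjusted p = 0.0411), with no filter (adjusted p = 1.01e-06) and with only the groups compared (adjusted p = 0.00988). Without knockout control replicate 1, the highest library, the value was -1.63 (adjusted p = 0.624). In wild type cells it was -1.30 ± 0.64 (adjusted p = 0.688), and the difference between the genotypes of -0.91 had an interval from -2.75 to 0.93, so that the data do not tell the genotypes apart. Neutrophil marker sums were 25.6 to 64.6 CPM in knockout Ac-LDL libraries and 52.0 to 141 CPM in their controls, and their part in the *Slc7a11* values was not tested.

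Ox-LDL left *Slc7a11* with log2 fold changes of 0.52 ± 0.51 in wild type and -0.54 ± 0.48 in knockout cells (adjusted p = 0.835 and 0.736). Without wild type mouse 1 the former was 0.18. Their difference of -1.05 had an interval from -2.50 to 0.39. Without knockout control replicate 1 the knockout value was 0.05 and the difference -0.46. In control medium, knockout exceeded wild type by 0.73 ± 0.49 (adjusted p = 1) with overlapping libraries, and by 0.14 without knockout control replicate 1. *Slc3a2*, the partner chain of the antiporter, is named here for that role after its values were seen. It had group means of 196 to 235 CPM and log2 fold changes with either LDL of -0.25 to -0.07. With 213 to 383 counts per library, against 2 to 59 of *Slc7a11*, the spreads of the 2 are not compared. In wild type cells with Ac-LDL the quasi-likelihood test gave an unadjusted p of 0.0527 for *Slc3a2* and 0.0516 for *Slc7a11*.

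*Gclc* (chr9:77754535-77794485, plus strand, GRCm38) encodes the catalytic subunit of glutamate-cysteine ligase. Wild type mice 1, 2 and 3 had 67.8, 35.6 and 37.9 CPM in control medium, 59.8, 55.4 and 49.6 CPM with Ac-LDL, and 90.5, 87.0 and 78.3 CPM with Ox-LDL. All Ox-LDL libraries were above all control libraries, and the control of mouse 1 stood well above those of the other 2 mice. Knockout mice had 33.8, 40.2 and 25.8 CPM in control medium, 39.4, 60.5 and 41.8 CPM with Ac-LDL, and 74.9, 92.4 and 64.2 CPM with Ox-LDL, again with no overlap between Ox-LDL and control.

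*Gclc* rose 1.84-fold with Ox-LDL in wild type cells (log2 0.88 ± 0.22, 95% interval of the fold 1.35 to 2.51, adjusted p = 0.0416) and 2.31-fold in knockout cells (log2 1.21 ± 0.22, interval 1.68 to 3.17, adjusted p = 0.00211). It was higher in each of the 6 mice, by 0.41 to 1.26 in wild type and by 1.12 to 1.27 in knockout mice on the log2 scale. Leaving out 1 library at a time kept the call in knockout cells every time (adjusted p 0.00336 to 0.0278). The wild type call was lost in 5 of 6 such fits (log2 0.71 to 1.22, adjusted p 0.00119 to 0.294), and was kept only without wild type control replicate 1, whereas without all of wild type mouse 1 the value was 1.17 (adjusted p = 0.00393). The summed neutrophil markers were 72.9 to 126 CPM in wild type control and 142 to 252 CPM in wild type Ox-LDL libraries. In knockout cells they were 52.0 to 141 and 63.0 to 115 CPM, which overlap. Their part in the *Gclc* values was not tested.

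With Ac-LDL the log2 fold changes of *Gclc* were 0.24 ± 0.23 in wild type (adjusted p = 0.903) and 0.52 ± 0.23 in knockout cells (adjusted p = 0.591). Neither passed, although all 3 knockout mice were above their own control. The response to Ox-LDL differed between the genotypes by 0.33 (interval -0.32 to 0.97), and by 0.05 without wild type mouse 1. In control medium *Gclc* was lower in knockout cells by a log2 fold change of -0.47 ± 0.24 (adjusted p = 1), and of -0.15 without that mouse.

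*Gclm* (chr3:122245557-122270732, plus strand, GRCm38) encodes the modifier subunit, which lowers the inhibition of the ligase by glutathione. Its promoter window (chr3:122245307-122245606, GRCm38.p6, plus strand) is shown because it alone of the 5 windows held TGACNNNGC, the core of the antioxidant response element, searched on both strands, on the other strand at 134 bases before the start and marked in capitals. This core is found in 12.4% of the 32851 windows, and 79.7% of the bases of the *Gclm* window are G or C, against 44.7% for *Slc7a11*.
Gclm promoter: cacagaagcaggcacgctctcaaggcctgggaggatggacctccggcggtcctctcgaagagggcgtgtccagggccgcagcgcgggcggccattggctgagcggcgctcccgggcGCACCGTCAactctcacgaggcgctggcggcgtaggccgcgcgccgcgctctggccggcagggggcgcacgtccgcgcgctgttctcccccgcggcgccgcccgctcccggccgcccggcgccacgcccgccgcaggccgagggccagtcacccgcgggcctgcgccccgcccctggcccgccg
No match in the other windows says only that these letters are not within them.

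Wild type mice 1, 2 and 3 had 281, 136 and 225 CPM of *Gclm* in control medium, 277, 183 and 216 CPM with Ac-LDL, and 412, 271 and 399.7 CPM with Ox-LDL. Mouse 2 was lowest in every medium, so that its Ox-LDL library lay below the control of mouse 1 and the groups overlapped, although each mouse was higher than in its own control. Knockout mice had 217, 183 and 139.9 CPM in control medium, 216, 238 and 188 CPM with Ac-LDL, and 337, 417 and 326 CPM with Ox-LDL, and here Ox-LDL and control did not overlap.

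In knockout cells with Ox-LDL, *Gclm* rose by 1.0 ± 0.21 on the log2 scale, a 2.0-fold change (95% interval 1.47 to 2.72, adjusted p = 0.00935). The call was lost without knockout control replicate 3 (0.85, adjusted p = 0.0870) and without knockout Ox-LDL replicate 2 (0.88, adjusted p = 0.0794). In wild type cells the log2 fold change was 0.76 ± 0.22 (fold 1.69, interval 1.24 to 2.30), which missed the threshold (adjusted p = 0.0987) and passed with the mouse as a block (0.78, adjusted p = 3.98e-06), with no filter (0.77, adjusted p = 9.07e-05) or without wild type mouse 1 (0.89, adjusted p = 0.0253). The 2 responses differed by 0.24 (interval -0.38 to 0.87). With Ac-LDL the values were 0.08 ± 0.22 in wild type and 0.25 ± 0.22 in knockout cells (adjusted p = 0.981 and 0.875). Part of the *Gclm* transcript, 5.61% of its 31-base words, is shared with *Ppia* and pseudogenes of it, 1 of which lies within *Gclm* on the same strand, so that part of its counts is uncertain.

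**Figure D2:**
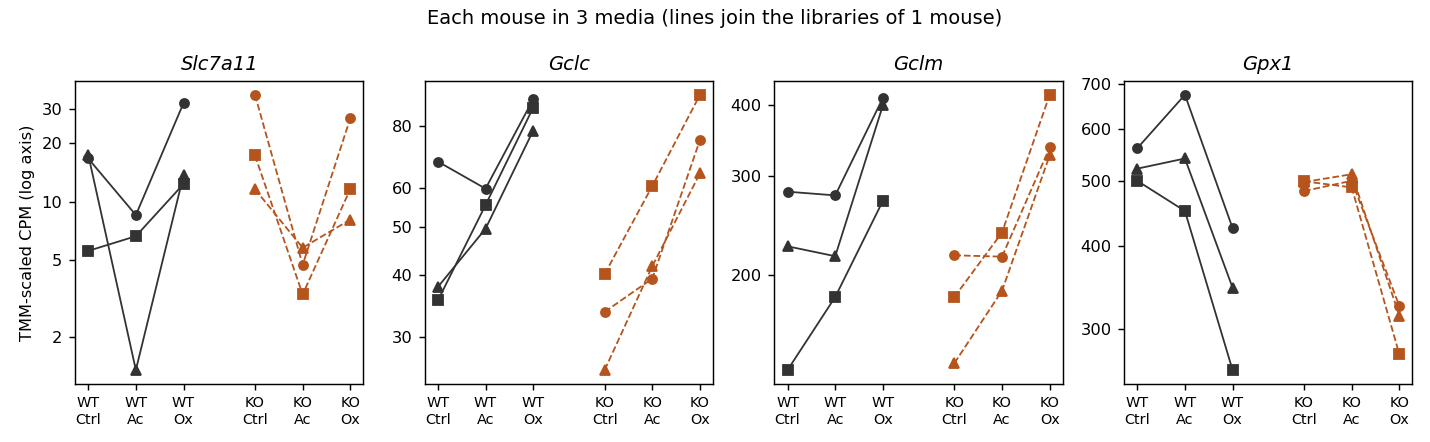
TMM-scaled CPM on a log axis of *Slc7a11*, *Gclc*, *Gclm* and *Gpx1* in each mouse (lines) across control medium, Ac-LDL and Ox-LDL, wild type in black and knockout in brown. From control to Ox-LDL every line of *Gclc* and *Gclm* goes up and every line of *Gpx1* goes down, and *Slc7a11* dips with Ac-LDL in 5 of the 6 mice.

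The proportion of the 2 ligase subunits to each other overlapped between all groups. Per kilobase, *Gclm* was 2.29 to 3.56 times *Gclc* in wild type control libraries, 1.98 to 2.78 times with Ac-LDL and 1.86 to 3.06 times with Ox-LDL, and in knockout libraries it was 2.73 to 3.85, 2.36 to 3.28 and 2.69 to 3.04 times. Within each of the 3 knockout mice the ratio was lower with either LDL than in its control.

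*Gss* (chr2:155563181-155592810, minus strand, GRCm38), which completes the tripeptide, did not pass in any comparison. Wild type mice 1, 2 and 3 had 21.3, 27.2 and 19.7 CPM in control medium, 17.1, 14.8 and 17.7 CPM with Ac-LDL, and 17.9, 16.1 and 12.4 CPM with Ox-LDL, so that every library with LDL lay under every control library. Knockout mice had 15.7, 11.8 and 14.8 CPM in control medium, 12.6, 18.3 and 9.86 CPM with Ac-LDL, and 10.9, 19.8 and 16.8 CPM with Ox-LDL, all overlapping. The log2 fold changes were -0.47 ± 0.27 with Ac-LDL and -0.57 ± 0.27 with Ox-LDL in wild type cells (adjusted p = 0.772 and 0.477), and -0.04 ± 0.28 and 0.19 ± 0.28 in knockout cells (adjusted p = 0.992 and 0.857).

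In control medium *Gss* had a knockout over wild type log2 fold change of -0.69 ± 0.27 (fold 0.62, interval 0.42 to 0.91, unadjusted p = 0.0162, adjusted p = 1). Libraries of the 2 genotypes did not overlap there, while they overlapped with either LDL. Those of *Gpx1* did not overlap in control medium either, at a log2 fold change of only -0.10 ± 0.15. The share of all genes that separate in this way is not given here. The response to Ox-LDL differed by 0.76 (interval -0.03 to 1.56, unadjusted p = 0.0600, adjusted p = 1). Counts of *Gss* were 13 to 39 per library. It overlaps *Acss2*, *Gssos1* and *Gssos2* on the opposite strand, and although the library kit keeps strand, the strand setting of the counting is not given in the sources used here.

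*Gsr* (chr8:33652523-33698163, plus strand, GRCm38) encodes the reductase that returns oxidized glutathione to its reduced form. Wild type group means were 87.6 ± 17.2 CPM in control medium, 92.4 ± 21.5 CPM under Ac-LDL and 121 ± 25.2 CPM under Ox-LDL, and the corresponding knockout means were 94.8 ± 16.4, 90.9 ± 5.08 and 118 ± 12.1 CPM (SD, n = 3). By mouse, wild type controls were at 107, 82.4 and 73.6 CPM and Ox-LDL libraries at 150.5, 106 and 108 CPM, so that each mouse was higher with Ox-LDL while the groups overlapped narrowly. The log2 fold change with Ox-LDL of 0.47 ± 0.18 in wild type cells missed the threshold (adjusted p = 0.308) and passed with the mouse as a block (0.47, adjusted p = 0.0198). In knockout cells it was 0.31 ± 0.17 (adjusted p = 0.511), with 2 of 3 mice higher. With Ac-LDL it was 0.07 ± 0.18 and -0.06 ± 0.18.

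*Gpx1* (chr9:108338903-108340343, plus strand, GRCm38) encodes the selenoprotein that reduces hydrogen peroxide at the cost of glutathione, and it fell with Ox-LDL in both genotypes. Wild type mice 1, 2 and 3 had 561, 501 and 523 CPM in control medium, 675, 451 and 541 CPM with Ac-LDL, and 426, 260.5 and 346 CPM with Ox-LDL. Knockout mice had 484, 500.2 and 499 CPM in control medium, 501, 489.8 and 513 CPM with Ac-LDL, and 325, 275 and 314.5 CPM with Ox-LDL. In both genotypes every Ox-LDL library was below every control library, and the Ac-LDL libraries spread around the controls. How many of all genes separate in this way with Ox-LDL is not given here.

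The fold of *Gpx1* with Ox-LDL was 0.65 in wild type cells (log2 -0.62 ± 0.16, interval of the fold 0.52 to 0.81, adjusted p = 0.0467) and 0.62 in knockout cells (log2 -0.70 ± 0.16, interval 0.49 to 0.77, adjusted p = 0.0133), and it was lower in each of the 6 mice. The genotypes differed in this response by -0.08 (interval -0.53 to 0.38). With 1 library left out the call was lost in 5 of 6 fits in each genotype, at log2 values of -0.80 to -0.47 (adjusted p 0.00576 to 0.175) and -0.73 to -0.63 (adjusted p 0.0407 to 0.105), and was kept only without Ox-LDL replicate 1 of that genotype. Without wild type mouse 1 altogether the wild type value was -0.75 (adjusted p = 0.00207). Neutrophil marker sums moved with medium in the wild type as given for *Gclc*, overlapped in the knockout, and their part was not tested. With Ac-LDL the log2 fold changes were 0.07 ± 0.15 and 0.02 ± 0.15 (adjusted p = 0.969 and 0.992).

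**Figure D3:**
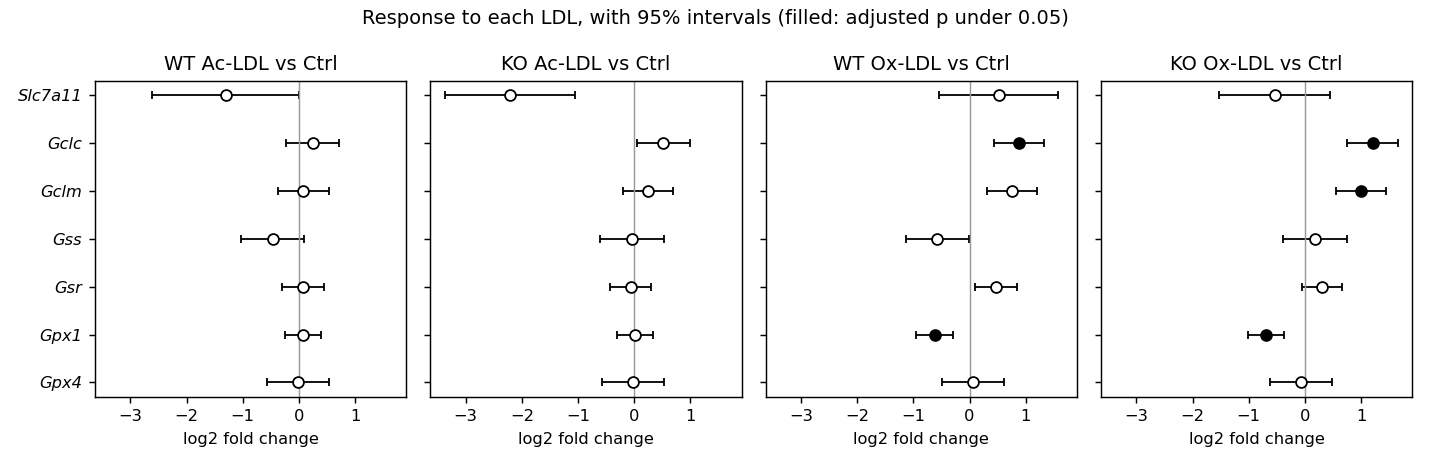
Log2 fold change with 95% intervals (horizontal axis) of 7 genes for each LDL against control medium in wild type (WT) and knockout (KO) cells, filled where the adjusted p was under 0.05. *Gclc* and *Gpx1* are filled with Ox-LDL in both genotypes, *Gclm* in the knockout, and no gene with Ac-LDL. *Slc7a11* has the widest intervals.

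*Gpx4* (chr10:80047166-80056439, plus strand, GRCm38), the selenoprotein that reduces peroxides within membrane lipids and whose loss leads to ferroptosis, stayed near its control level on average. Wild type group means were 227 ± 83.0, 224 ± 56.2 and 238 ± 126 CPM for control, Ac-LDL and Ox-LDL cells, and knockout means were 192 ± 23.0, 188 ± 21.9 and 184 ± 8.49 CPM (SD, n = 3). The wide wild type spread comes with mouse 1, which had 322, 275 and 374 CPM in the 3 media against 126 to 233 CPM in mice 2 and 3. Log2 fold changes with either LDL were between -0.06 and 0.06, with intervals that reach from -0.61 to 0.61, so that changes of up to about that size would not be seen here. *Gpx4* shares 38.9% of its 31-base words with other genes, most of them with the pseudogene *Gpx4-ps2*. No gene of that name is among those listed, and the estimated counts of *Gpx4* are whole or nearly whole numbers, so that no splitting of reads is seen. Any reads of the pseudogene could have been counted for *Gpx4*, which was not tested.

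The proportion of the 2 peroxidases to each other moved with *Gpx1*. In knockout cells *Gpx1* was 2.71 to 3.56 times *Gpx4* per kilobase in control libraries, 2.87 to 3.47 times with Ac-LDL and 1.74 to 2.16 times with Ox-LDL, with no overlap of the last with the first. In wild type cells it was 2.08 to 3.55, 2.78 to 3.29 and 1.36 to 2.47 times, where Ox-LDL and control overlapped between mice, although the ratio was lower with Ox-LDL in each of the 3 mice.

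*Ggt5* (chr10:75589340-75617200, plus strand, GRCm38) had 14 counts in all 18 libraries together and 0 in 10 of them. The counts were 1, 2 and 0 in wild type control libraries, 0 in all 3 under Ac-LDL, and 3, 2 and 2 under Ox-LDL. Knockout control libraries had 0, 0 and 1, those under Ac-LDL 2, 0 and 0, and those under Ox-LDL 0, 0 and 1. Every value is at or under the 3 counts taken as the floor, so no fold change is given, and differences in *Ggt5* were not detectable at this depth.

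Around these genes, 11 lists of related genes (123 genes, 101 of them tested) were read in the same fits. The lists too were chosen with earlier results of these data known. With Ox-LDL, 4 of 101 rose and 0 fell in wild type cells, 5 rose and 1 fell in knockout cells, and with Ac-LDL 1 rose and 1 fell in either genotype. These are 3.96% and 5.94% of the 101 with Ox-LDL, against 1.34% and 2.32% of all genes tested, and 1.98% in each genotype with Ac-LDL, against 0.472% and 0.521%. With the mouse as a block the counts were 17 and 20 with Ox-LDL and 5 and 10 with Ac-LDL. The share of all genes called with the block is not given here, so that these counts have no background beside them. Both calls with Ac-LDL in knockout cells, and 1 of the 5 that rose with Ox-LDL there, are of *Gstp1* and *Gstp2*, whose reads are uncertain. The median log2 fold change of the 101 was 0.04, -0.01, -0.05 and -0.08 in these 4 comparisons in that order, near the median of all genes tested.

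Among 11 targets of NRF2 outside glutathione metabolism, 2 rose in wild type and 1 in knockout cells with Ox-LDL, against 1.34% and 2.32% of all genes, at list medians of 0.53 and 0.42. The wild type neutrophil marker sums given for *Gclc*, 72.9 to 126 CPM in control and 142 to 252 CPM with Ox-LDL, moved with this group and with *Mgst1*, named further on, and their part was not tested. *Prdx1*, a peroxiredoxin, went from 952 ± 251 to 1863 ± 818 CPM in wild type cells (log2 0.97 ± 0.24, adjusted p = 0.0428), which was lost with DESeq2 (adjusted p = 0.0693), with only the groups compared (adjusted p = 0.361) and without wild type Ox-LDL replicate 1 (0.57, adjusted p = 0.258). It had a log2 fold change of 0.71 ± 0.24 in knockout cells (adjusted p = 0.149). *Blvrb*, biliverdin reductase B, rose by 0.61 ± 0.14 in the wild type (adjusted p = 0.0179), and *Srxn1*, sulfiredoxin, rose by 0.58 ± 0.14 in the knockout (adjusted p = 0.0274). With 1 library left out these 3 calls were lost in 4, 3 and 4 of 6 fits, with adjusted p up to 0.274, 0.168 and 0.196. They were kept without wild type control replicate 1 or Ox-LDL replicate 2 (*Prdx1*), without those or control replicate 3 (*Blvrb*), and without knockout control replicate 2 or Ox-LDL replicate 1 (*Srxn1*). Without wild type mouse 1 the wild type values of *Prdx1* and *Blvrb* were 0.79 (adjusted p = 0.0273) and 0.52 (adjusted p = 0.0510). With Ac-LDL 0 of 11 passed.

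Of 9 tested genes of the ferroptosis list, 1 passed. *Slc40a1*, the iron exporter ferroportin, rose with Ox-LDL from 54.1 ± 4.75 to 153 ± 37.8 CPM in wild type (log2 1.51 ± 0.19, adjusted p = 2.22e-05) and from 56.3 ± 14.8 to 146 ± 14.6 CPM in knockout cells (log2 1.38 ± 0.18, adjusted p = 4.49e-05), and kept the call with each library left out. With Ac-LDL its values were 0.84 ± 0.20 in wild type and 0.57 ± 0.19 in knockout cells, which did not pass (adjusted p = 0.0576 and 0.290). Among 9 genes of glutathione transport, *Abcc3*, an exporter of conjugates, passed in knockout cells with Ox-LDL (0.76 ± 0.14, adjusted p = 0.00206) and had 0.51 ± 0.14 in wild type cells (adjusted p = 0.0693). Of 18 tested glutathione transferases, *Mgst1*, a microsomal enzyme, rose in wild type cells with Ox-LDL (1.01 ± 0.25, adjusted p = 0.0379), a call lost without wild type mouse 1 (0.78, adjusted p = 0.194). With 1 library left out it was lost in 4 of 6 fits (adjusted p up to 0.284) and kept without wild type control replicate 3 or Ox-LDL replicate 2. The near-identical copies *Gstp1* (0 to 23 counts) and *Gstp2* (0 to 17 counts) passed in knockout cells, *Gstp1* upward with both LDLs and *Gstp2* downward with Ac-LDL. Reads of the pair cannot be assigned with certainty. In knockout control libraries *Gstp1* was at 0 and *Gstp2* at 7.43 to 10.25 CPM. In knockout Ac-LDL libraries *Gstp1* was at 5.55 to 10.24 CPM and *Gstp2* at 0, as *Gstp2* was in all wild type libraries. A move of reads from 1 copy to the other was not tested. In control medium 1 of the 18 transferases was lower in knockout than in wild type cells, against 0.00814% of all genes. The call of *Gstp2* was lost with DESeq2 (adjusted p = 1) and in 5 of 6 fits with 1 library left out (adjusted p up to 0.113), and was kept without knockout control replicate 2.

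**Figure D4:**
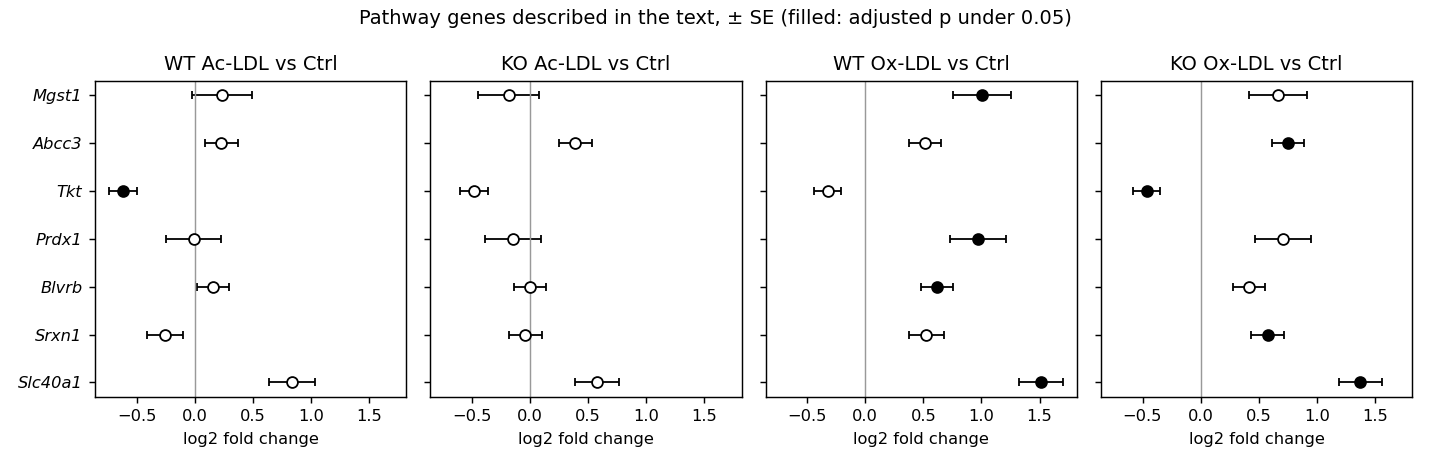
Log2 fold change ± SE (horizontal axis) of 7 pathway genes that passed in at least 1 comparison, without *Gstp1* and *Gstp2*, for each LDL against control in wild type (WT) and knockout (KO) cells, filled where the adjusted p was under 0.05. *Slc40a1* has the largest values with Ox-LDL, at 1.51 and 1.38, and *Tkt* lies under 0 in all 4 panels.

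Of 8 genes of NADPH supply, *Tkt*, transketolase of the pentose phosphate pathway, fell in wild type cells with Ac-LDL (-0.62 ± 0.12, adjusted p = 0.00922) and in knockout cells with Ox-LDL (-0.46 ± 0.12, adjusted p = 0.0332). Its other 2 values with LDL were -0.48 ± 0.12 and -0.32 ± 0.12 (adjusted p = 0.0671 and 0.272). With 1 library left out, its 2 calls were lost in 3 and 6 of 6 fits, at adjusted p up to 0.0642 and 0.189. The libraries behind the 3 losses with Ac-LDL were wild type control replicate 2 and wild type Ac-LDL replicates 2 and 3.

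No tested gene passed with either LDL in 5 lists, and for each the 2 genes of smallest p over all comparisons of 2 groups are given, with their response of smallest p to an LDL. In cystine and cysteine supply (7 of 10 tested), *Ahcy* had -0.68 ± 0.27 in knockout cells with Ox-LDL (adjusted p = 0.273) and *Mat2a* 0.34 ± 0.16 in wild type cells with Ac-LDL (adjusted p = 0.666). Both enzymes belong to the methionine cycle. In glutathione breakdown (8 of 12 tested), *Anpep*, a surface aminopeptidase, had -0.49 ± 0.15 in knockout cells with Ac-LDL (adjusted p = 0.227) and *Dpep2*, a dipeptidase, -0.40 ± 0.14 in wild type cells with Ox-LDL (adjusted p = 0.268). Of 3 tested other peroxidases, *Gpx2* had at most 3 counts and *Prdx6* stayed between 48.5 and 67.2 CPM in the group means. Of 7 glutaredoxins and glyoxalases, *Glrx* had -0.49 ± 0.22 in wild type and -0.49 ± 0.20 in knockout cells under Ox-LDL (adjusted p = 0.432 and 0.281), and *Glrx5* -0.81 ± 0.34 in knockout cells with Ac-LDL (adjusted p = 0.550). Of 10 genes of selenoprotein synthesis, *Selenop*, the selenium carrier, had 0.55 ± 0.20 in wild type cells with Ac-LDL (adjusted p = 0.454) and *Selenow* -0.66 ± 0.39 in the same cells with Ox-LDL (adjusted p = 0.646).

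For the 3 genes that passed, the genes of most similar pattern were sought among 6753 others with a mean of at least 20 CPM, by Pearson's r of log2 CPM over the 18 libraries, which share mice and media. *Gclc* was most like *Emp1* (r = 0.917), *Myo7a* (0.881) and *Gclm* (0.873), the other subunit of its own enzyme. *Gclm* was most like *Cat* (0.965), which encodes catalase, *Creg1* (0.929) and *Nek6* (0.913). *Gpx1* was most like *Tmsb4x* (0.947), *Rac2* (0.881) and *Cx3cr1* (0.874). After the group means were removed these values were 0.842, 0.796 and 0.637 for *Gclc*, 0.936, 0.830 and 0.870 for *Gclm*, and 0.908, 0.780 and 0.609 for *Gpx1*, so that differences between mice within a group carry much of the likeness.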

How the data were processed

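RNA-Seq of BM-derived macrophages was analysed in 6 groups of genotype and medium taken from the sample labels. Reads were aligned with STAR to mm10 and quantified with Salmon, per the labels and the paper's methods, from a stranded total RNA kit, and the strand setting and versions are not given in the sources used here. The values deposited by the authors are estimated counts per gene, not normalized. They were rounded, filtered with filterByExpr (minimum count 2, minimum total 10), scaled with TMM and fitted in edgeR 4.0.16 (R 4.3.3) by the quasi-likelihood method, with all 18 libraries in 6 groups. P-values of 9 comparisons were Benjamini-Hochberg adjusted over 12290 genes, with a threshold of 0.05. SE is the log2 fold change over the square root of F. Log2 CPM have a prior count of 2.

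The 8 genes, the 11 lists and the tests were chosen with earlier results of these data known. Named from each list are the genes that passed in any comparison of 2 groups (at most 4), or else the 2 with the smallest p; members of the regulator list are counted but not reported singly here. Coordinates and exon lengths are from GENCODE for GRCm38, the build of mm10, and promoters from RefSeq. In a chi-square test of their counts, no pair among the 18 pairs of replicates came within counting error (statistic over degrees of freedom 2.03 to 12.7).

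Labels give the same animal in all 3 media, and deviations from group means correlated between libraries of 1 mouse (r 0.112 to 0.564, 18 of 18 over 0.1), so the media are paired within a genotype. The main fit leaves this pairing out. Its SEs, intervals and p-values, and those of fits with libraries left out, are therefore unpaired, and only the fit with the mouse as a block uses the pairing. The code was tested on simulated data. Alternatives were DESeq2 1.42.0, other scalings and filters, a fit of only the groups compared, the replicate block and each library left out. The block was the mouse for the responses to LDL and for their differences. Between the genotypes within a medium it joined different animals by replicate number alone, whose deviations had a median r of 0.0207. Figures were drawn with matplotlib 3.10.9.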

Additional observations from a re-analysis of the deposited data

How the results depend on the processing

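Of 540 alternative values of the 37 log2 fold changes given for the 8 genes, 479 kept their direction and side of the threshold, 20 lost the call, 10 gained it and 31 turned in direction. For 14 calls among the pathway genes, 136 of 188 alternatives kept and 52 lost the call, and none turned. The number of the 8 genes that passed with Ac-LDL in knockout cells was 1 (*Slc7a11*) with DESeq2, with no filter, with only the groups compared and with the replicate block. With Ox-LDL in wild type cells it was 1 with library size alone, 0 with only the groups compared, 3 with no filter, 4 with the replicate block (*Gclc*, *Gclm*, *Gsr*, *Gpx1*) and 0 to 2 with 1 library left out. With Ox-LDL in knockout cells it was 1 to 3 with 1 library left out, 1 without knockout control replicate 3 or knockout Ox-LDL replicate 2, and 3 with the replicate block. The block changed no other call on the 8 genes, but between the genotypes within a medium it was of replicate number and not of mouse. Among the 101 pathway genes it gave 5 and 10 calls with Ac-LDL in wild type and knockout cells and 17 and 20 with Ox-LDL, against 2, 2, 4 and 6 without it. How far the block raised the calls among all genes is not given here. Without wild type mouse 1, an alternative chosen after seeing the data, 3 passed with Ox-LDL in wild type cells. The cause of these shifts was not tested.

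The following values turned in direction. With library size alone, *Gpx4* with Ac-LDL was 0.023 in wild type and 0.040 in knockout cells, *Gss* with Ac-LDL 0.020 and *Gsr* 0.0012 in knockout cells. With the replicate block *Gpx4* with Ac-LDL was 0.010 in wild type cells. Without wild type mouse 1, *Gpx1* and *Gpx4* with Ac-LDL were -0.039 and 0.15, *Gpx4* with Ox-LDL -0.081 and the difference in the Ox-LDL response of *Gpx1* 0.071. With 1 library left out, wild type Ac-LDL values ran from -0.17 to 0.32 for *Gclm*, -0.11 to 0.24 for *Gsr*, -0.083 to 0.20 for *Gpx1* and -0.19 to 0.32 for *Gpx4*. Knockout Ac-LDL values ran from -0.32 to 0.17 for *Gss*, -0.16 to 0.088 for *Gsr* and -0.11 to 0.066 for *Gpx4*. With Ox-LDL they ran from -0.41 to 0.40 for *Gpx4* in wild type, and from -1.12 to 0.051 for *Slc7a11* and -0.15 to 0.035 for *Gpx4* in knockout cells. Differences between the genotypes in the Ox-LDL response ran from -0.016 to 0.50 for *Gclc*, -0.011 to 0.49 for *Gclm* and -0.22 to 0.099 for *Gpx1*. Depth limits *Slc7a11* and *Gss*, with counts under 60, and *Ggt5* could not be measured.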
